A study of Saccharomyces cerevisiae with 56 samples.

Results

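The single amino acid substitutions of the first β-strand in PDZ domain 3 of PSD-95 are described here across 8 sets of growth measurements in yeast. They were found by setting each protein sequence of the deposited table, without its last 2 letters, beside the wild-type sequence and keeping those with exactly 1 changed amino acid from R312 to H317, no stop and a deposited error below the placeholder value of 50. This gave 114 of the 114 possible exchanges, out of 1178 single missense substitutions over the 66 residues of the mutated block, and 106 of the 114 were measured in all 8 sets. The study grew yeast of strain BY4742 that carried libraries of the domain in 4 constructs, which the labels call PDZ3 (the bare domain), N and C (1 extension each) and NC (both extensions). Each construct went through 2 growth competitions in methotrexate. In the first, abundancePCA, growth follows the amount of the domain, and in the other, bindingPCA, it follows the binding of the domain to a partner. All groups share the strain, the drug and competitions of about 5 generations at 30 °C, and every combination of construct and assay was sequenced as 3 inputs, 3 outputs and 1 wild-type library. The sources used here give neither the sequences of the extensions nor the partner. The domain is thus seen in a yeast growth assay, apart from the rest of PSD-95.

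PSD-95 is a scaffold protein of excitatory synapses, and its PDZ domains hold the C-terminal ends of receptors and other membrane proteins. A PDZ domain is a small fold of β-strands and α-helices in which the bound peptide lies along an edge strand, beside the loop that carries the GLGF motif. The first β-strand lies just ahead of that loop in the sequence. In a β-strand, neighbouring side chains point to opposite faces, so that every other residue can face the interior of the domain.

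The wild-type stretch from R312 to F325 is shown first because it places the 6 residues of the strand, in capitals, before the glycine-rich loop, in small letters. The 7 exchanges after it are a selection of those named in the results: they run from R312 to I316 in order, and the capital marks the changed residue.
wild type: RRIVIHrgstglgf
R312K: Krivih
R312W: Wrivih
R313K: rKivih
I314P: rrPvih
V315W: rriWih
I316A: rrivAh
I316W: rrivWh

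The deposited table gives each variant 1 score per construct and assay, relative to the wild type and merged over the cultures, with its standard error. The table holds neither counts nor single cultures: the depth is unknown, and every error below comes from the authors' error. Here each score was centred on the synonymous variants of the same set and divided by the size of the median nonsense variant, so that scaled scores run from 0, the wild type, to -1, the median nonsense variant. Errors after ± are standard errors (SE), and "passed" means a two-sided normal test with Benjamini-Hochberg adjustment over all single missense substitutions of the set or contrast, or over all 60 positions, at a threshold of 0.05. The scales differ, with a median nonsense size of 1.22, 0.935, 1.247 and 1.09 score units in the abundance of PDZ3, N, C and NC (the order used throughout) and 1.54, 1.51, 1.13 and 0.903 in binding. For a mean over the exchanges of a residue, the SE covers measurement, centre and scale but not the spread between the exchanges. That spread was larger, with an SD of 0.341 at R312 in the abundance of PDZ3. Precision differed between the residues. In the abundance of PDZ3 the median authors' error was 0.0100 score units at R312 but 0.0952 at V315 and 0.127 at H317. Of the members, 7 in the abundance of PDZ3 and 9 in its binding had an error above 0.2. V315F, V315K, H317D, H317F and H317I lacked a value in the abundance of PDZ3, V315E, V315P and V315Q lacked one in its binding, and H317D lacked one in the binding of C.

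Across the strand, exchanges lowered abundance and binding in an alternating pattern: those at R312, I314 and I316 were harmful, and most of those at R313, V315 and H317 were mild. In the abundance assay 78 of 109 members were lower than the wild type in PDZ3, where 68.1% of all missense substitutions were lower. With N it was 65 of 114 (60.9% of all), with C 54 of 114 (45.3%) and with NC 20 of 114 (15.3%). In binding the counts were 73 of 111 in PDZ3 (76.8% of all), 60 of 114 in N (67%), 59 of 113 in C (59.6%) and 48 of 114 in NC (57.8%). The shares over the whole strand thus lay near or below the background, and the pattern is in where the lower members stood: in the abundance of PDZ3, 18 of 19 were lower at each of R312, I314 and I316, against 9 of 19 at R313, 10 of 17 at V315 and 5 of 16 at H317. In the binding of NC, all 48 lower members were at R312 (18), I314 (16) and I316 (14). The median authors' error there was 0.00545, 0.00544 and 0.00614 at these residues, but 0.0105, 0.0277 and 0.0196 at R313, V315 and H317. The mean scaled scores were -0.124, -0.0789 and -0.166, beside 0.0268, 0.00650 and 0.0229, so the harm was shallow with NC. The median member scored -0.341, -0.173, -0.0981 and -0.0503 in abundance, against -0.245, -0.134, -0.0762 and -0.0406 over all missense substitutions, and -0.285, -0.114, -0.0744 and -0.0198 in binding, against -0.384, -0.204, -0.0912 and -0.0534.

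Among the 106 members with all 8 values, 19 were lower than the wild type in all 8 sets. They were 6 at R312 (D, E, G, L, P and W), 5 at I314 (K, P, Q, R and W) and 8 at I316 (D, E, G, K, N, P, R and W), a list drawn up after the values were seen. At the other end 17 members passed in none of the 8 sets, 7 of them at H317, 5 at R313, 3 at V315 and 1 each at I314 (I314V) and I316 (I316L). Neither count was taken over all missense substitutions, so nothing particular to the strand can be read from them. The larger errors at V315 and H317 made the test weaker at those residues, so fewer calls there do not show smaller effects. In abundance 0 members were higher than the wild type in any construct by the normal test, where 0.883%, 0.952%, 2.76% and 1.71% of all missense substitutions were. At an unadjusted p under 0.05 there were 0, 0, 1 and 1. With the deposited 0 of the score, in place of the synonymous variants, and the authors' error alone there were 4, 11, 3 and 10. In binding 0 members were higher in PDZ3 (2.8% of all), 1 in N (3.5%), 2 in C (2.85%) and 9 in NC (4.17%).

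R312, an arginine at the start of the strand, lost more binding than abundance in the constructs without C. Its 19 exchanges had a mean scaled score in abundance of -0.634 ± 0.0265 for PDZ3, -0.460 ± 0.0198 for N, -0.246 ± 0.00881 for C and -0.117 ± 0.0120 for NC. In binding the mean was -0.845 ± 0.0112 for PDZ3, -0.709 ± 0.0110 for N, -0.238 ± 0.00665 for C and -0.124 ± 0.00364 for NC. Harm at R312 was thus deep in PDZ3 and N, and deeper in binding than in abundance there. Binding minus abundance was -0.211 ± 0.0287 in PDZ3 and -0.249 ± 0.0227 in N, both of which passed and had the same direction under every scaling tried, and 0.00768 ± 0.0110 in C and -0.00653 ± 0.0125 in NC, which did not pass. Among positions, 36.7% were lower in binding than in abundance in PDZ3, and 40% in N.

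Lysine, the exchange that keeps the positive charge, lowered binding without passing the test in abundance. R312K scored -0.0310 for PDZ3, -0.0233 for N, 0.0186 for C and 0.0219 for NC in abundance and passed in none of them. In binding it scored -0.290 for PDZ3, -0.269 for N, -0.0829 for C and -0.0488 for NC and was lower in all 4 constructs. The difference between the assays passed in PDZ3 (-0.259 ± 0.0578), N (-0.245 ± 0.0492) and C (-0.101 ± 0.0363) but not in NC (-0.0707 ± 0.0461), and it passed in none of the 4 with the errors multiplied by 2. The aromatic R312Y scored -0.297 for PDZ3, -0.174 for N, -0.169 for C and -0.0172 for NC in abundance against -0.799, -0.596, -0.231 and -0.0883 in binding. Its binding minus abundance was -0.501 ± 0.0593 in PDZ3 and -0.422 ± 0.0503 in N, among the 3 largest falls of each. In all, 14 of 19 R312 exchanges were lower in binding than in abundance with PDZ3, 15 with N, 3 with C and 2 with NC, out of 17, 19, 7 and 7 such members of the 106. Of all missense substitutions 25.8%, 29.1%, 29% and 27.4% were. The opposite, binding above abundance, was called for 9, 21, 18 and 6 of the 106 members (12.4%, 16%, 14.9% and 5.53% of all), of which I314 and I316 held 5, 19, 14 and 3. These counts depend on the setting. On the unscaled score, lower calls were 34 in PDZ3 and 37 in N and higher calls 4 and 3. With the deposited 0 and the authors' error alone, higher calls were 35 in C and 33 in NC.

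Aspartate, proline and tryptophan stood lowest at R312 in the abundance of every construct. R312D scored -1.06 for PDZ3, -0.964 for N, -0.602 for C and -0.444 for NC in abundance and -0.991, -1.03, -0.394 and -0.228 in binding, and R312E, with the longer acidic side chain, -0.883, -0.712, -0.258 and -0.141 and -0.958, -0.810, -0.190 and -0.101. R312P, which removes a backbone hydrogen bond donor, scored -1.06, -0.967, -0.492 and -0.308 in abundance and -0.977, -1.04, -0.606 and -0.457 in binding. It was the lowest R312 exchange in the binding of C and NC. R312W scored -1.49 for PDZ3, -0.797 for N, -0.855 for C and -0.472 for NC in abundance. Its value in PDZ3 lay below the median nonsense variant (-1.49 ± 0.0763), while its binding there was -0.996. R312W was the one R312 exchange called higher in binding than in abundance in PDZ3 (0.493 ± 0.0829), where R312D and R312P stood higher without passing. R312M was the opposite case, with -0.733 in the abundance of PDZ3 and -1.40 ± 0.0369 in its binding.

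I314 and I316, the isoleucines of the strand, each had 1 close aliphatic exchange, I314V and I316L, that passed in none of the 8 sets. The mean at I314 was -0.624 ± 0.0263 for PDZ3, -0.536 ± 0.0222 for N, -0.256 ± 0.00901 for C and -0.126 ± 0.0121 for NC in abundance and -0.630, -0.426, -0.156 and -0.0789 in binding. At I316 it was -0.799 ± 0.0318 for PDZ3, -0.645 ± 0.0259 for N, -0.380 ± 0.00991 for C and -0.167 ± 0.0124 for NC in abundance and -0.695, -0.547, -0.333 and -0.166 in binding. From the lowest mean up, I316 ranked 8, 9, 10 and 9 of 60 positions in abundance, and I314 ranked 15, 10, 16 and 11. In binding both stood nearer the middle, I316 at 19, 19, 20 and 22 and I314 at 25, 23, 31 and 33. I314V scored -0.0160, -0.00744, -0.00630 and -0.0134 in abundance and -0.00680, -0.0318, -0.0101 and -0.00674 in binding. I316L scored -0.0363, -0.0512, -0.0381 and -0.0422 and 0.0163, 0.00546, -0.00540 and -0.00407. The like exchange at the other isoleucine was less neutral in abundance: I314L scored -0.243, -0.156, -0.0688 and -0.0535, lower in all but NC and below the polar I314C in PDZ3 (-0.111), and I316V -0.126, -0.0825, -0.0267 and -0.0133, lower in PDZ3.

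By the class of the new residue, charged exchanges of I314 and I316 stood far below aliphatic ones. The 4 exchanges to lysine or arginine had a median of -1.12, -1.02, -0.491 and -0.168 in abundance and -0.972, -0.841, -0.418 and -0.219 in binding. The 4 acidic exchanges had -1.07, -1.04, -0.611 and -0.127 and -0.968, -0.831, -0.268 and -0.0725. The 8 aliphatic exchanges had -0.140, -0.126, -0.0534 and -0.0356 and -0.107, -0.0311, -0.0216 and -0.0149. The aromatic class was the one with a lower median in binding than in abundance in every construct, -0.629, -0.328, -0.158 and -0.0817 in abundance and -0.811, -0.652, -0.319 and -0.136 in binding for its 6 members. It did not hold for each of them: in NC 4 of the 6 (I314F, I314W, I314Y and I316F) stood higher in binding without passing. In C I314W was called higher (0.205 ± 0.0390), and I314F and I316F stood higher without passing. In N I316F was called higher (0.137 ± 0.0509), and I314W stood higher without passing. In PDZ3 I314W, I316F and I316W stood higher without passing. These medians are a description without a test. As position means, binding stood above abundance at I316 by 0.104 ± 0.0335 in PDZ3, 0.0973 ± 0.0278 in N and 0.0469 ± 0.0121 in C, but below it in PDZ3 and N on the unscaled score and in N and C by the median. At I314 it stood above by 0.110 ± 0.0241 in N, where it turned to below by both of these, and by 0.0995 ± 0.0111 in C and 0.0473 ± 0.0126 in NC. Of the 60 positions 28.3%, 31.7%, 36.7% and 25% were higher in binding.

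Single exchanges of I316 separated the assays in both directions. I316W scored -1.11 for PDZ3, -0.744 for N, -0.333 for C and -0.142 for NC in abundance and -1.02 for PDZ3, -1.01 for N, -0.731 for C and -0.518 for NC in binding. I316H scored -0.983, -0.491, -0.161 and -0.0811 in abundance and -1.02, -0.860, -0.490 and -0.360 in binding, and I316Y -0.859, -0.407, -0.181 and -0.0525 and -1.01, -0.819, -0.497 and -0.341. With an extension, all 3 bound less than their abundance on the scale: binding minus abundance for I316W was -0.262 ± 0.0598 with N, -0.397 ± 0.0385 with C and -0.376 ± 0.0474 with NC, and these 3 exchanges were the 3 largest falls in C and in NC. In PDZ3, where all 3 scored -0.859 or lower in abundance, the difference passed for none of them. I316A, which shortens the side chain, went the other way. It scored -0.707 for PDZ3, -0.309 for N, -0.0777 for C and -0.0290 for NC in abundance and -0.165 for PDZ3, 0.00323 for N, 0.0683 for C and 0.0433 for NC in binding, where it was lower than the wild type in PDZ3 and higher in C (0.0683 ± 0.0234) and NC (0.0433 ± 0.0127), though in neither with the errors multiplied by 2. Binding minus abundance of I316A was 0.541 ± 0.0633 in PDZ3, 0.312 ± 0.0508 in N and 0.146 ± 0.0366 in C, and it did not pass in NC (0.0722 ± 0.0465).

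Proline, which breaks the hydrogen bonds of a strand, gave the lowest abundance at I314 and I316 with N, C and NC. I316P scored -1.14 for PDZ3, -1.18 for N, -1.09 for C and -0.986 for NC in abundance, the lowest or next lowest member of the strand with N, C and NC, and -0.985 for PDZ3, -0.844 for N, -0.923 for C and -0.351 for NC in binding. I314P scored -1.12, -1.18, -0.971 and -0.636 in abundance and -0.969, -0.652, -0.585 and -0.201 in binding. On the scale both were less harmful in binding than in abundance with the extensions, by 0.530 ± 0.0672 in N, 0.386 ± 0.0409 in C and 0.435 ± 0.0484 in NC for I314P and by 0.636 ± 0.0538 in NC for I316P. The rise of I316P in N, 0.336 ± 0.0688, turned to -0.169 on the unscaled score, and that of I314P in N no longer passed there. Proline at R313 and H317 was mild. R313P scored -0.104, -0.0763, -0.0155 and 0.00881 in abundance and -0.128, 0.0168, -0.0489 and -0.0254 in binding, lower only in the binding of PDZ3, and H317P (-0.0821, -0.0939, -0.0841 and 0.00572 and -0.115, -5.14e-05, 0.0172 and 0.00206) passed in none of the 8. V315P was lower in the abundance of PDZ3 (-1.06) and N (-0.437) but not of C (-0.112) or NC (-0.0195), and in the binding of N (-0.366) but not of C or NC.

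At R313, the neighbouring arginine, 9, 4, 1 and 1 of the 19 exchanges were lower in abundance and 8, 4, 8 and 0 in binding. Its mean was -0.154 ± 0.0158 for PDZ3, -0.0482 ± 0.0112 for N, -0.0219 ± 0.0109 for C and 0.00637 ± 0.0126 for NC in abundance and -0.138 ± 0.0119 for PDZ3, -0.0420 ± 0.00974 for N, -0.0568 ± 0.00692 for C and 0.0268 ± 0.00454 for NC in binding. The means over the 19 exchanges lay below 0 in PDZ3, N and C and above it in NC, by less than the SE in abundance. R313K scored 0.0335, 0.0755, -0.000589 and 0.0245 in abundance and 0.0273, -0.0174, -0.0464 and 0.0572 in binding, and R313E, a reversal of charge, 0.0500, 0.0707, 0.0571 and 0.0311 and 0.00837, 0.0323, -0.0489 and 0.0401. R313D was lower in PDZ3 (-0.230 in abundance and -0.173 in binding) and in no other set. Tryptophan was the lowest exchange in PDZ3 in both assays, with R313W at -0.522, -0.281, -0.0911 and -0.137 in abundance and -0.555, -0.181, -0.0990 and 0.0201 in binding. In the binding of NC, 6 R313 exchanges (E, F, I, K, N and V) were higher than the wild type, 6 of the 9 such members, with scores from 0.0401 to 0.0925. With the errors multiplied by 2 the 9 fell to 0.

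V315 and H317 were measured less precisely, and their means cover 14 and 16 exchanges. The V315 mean was -0.394 ± 0.0456 for PDZ3, -0.111 ± 0.0214 for N, -0.0883 ± 0.0237 for C and -0.0276 ± 0.0196 for NC in abundance and -0.289, -0.0930, -0.0695 and 0.00650 in binding. In the abundance of PDZ3, 4 of its 17 exchanges (G, P, T and W) lay below -0.5. V315W scored -1.22 for PDZ3, -0.505 for N, -0.191 for C and -0.0976 for NC in abundance and -0.797, -0.318, -0.115 and -0.0178 in binding, V315Y -0.493, -0.173, -0.392 and -0.131 and -0.618, -0.105, -0.0856 and 0.0140. V315G stood at -1.48 ± 0.456 in the abundance of PDZ3, with an authors' error above 0.2, and at -0.898 in its binding, against 0.118 and -0.00372 in NC. V315I, a close exchange, scored -0.294, -0.0289, -0.0825 and 0.0213 in abundance and -0.0887, -0.0277, -0.0893 and 0.0268 in binding, lower only in the abundance of PDZ3. The H317 mean was -0.209 ± 0.0435 for PDZ3, -0.0389 ± 0.0150 for N, -0.0618 ± 0.0215 for C and -0.0435 ± 0.0176 for NC in abundance and -0.106, -0.00147, -0.00808 and 0.0229 in binding. H317N, H317Q and H317Y, taken here as close exchanges, passed in 0, 1 and 1 of their 8 sets, H317Q above the wild type in the binding of C (0.0726 ± 0.0282) and H317Y below it in the abundance of PDZ3 (-0.339 ± 0.134). Leucine was lower in both assays in PDZ3 and N, with -0.270, -0.136, -0.0568 and -0.0500 in abundance and -0.150, -0.121, -0.0266 and -0.00331 in binding.

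With an extension many of the strand's exchanges scored nearer to the wild type than in PDZ3, with the lowest counts for N and the highest for NC. The same held over all missense substitutions, and the strand's shares lay near that background, from 24.8% against 27.7% of all with N in abundance to 43.6% against 33.9% with N in binding. All contrasts of an assay share PDZ3, so they are not independent of each other. In abundance 27 of 109 members were higher with N than in PDZ3 (27.7% of all missense substitutions), 56 with C (46.5%) and 66 with NC (52.2%). With the errors multiplied by 2 these counts were 0, 37 and 40. That with N was 53 with the deposited 0 and the authors' error alone, 61 on the unscaled score and 52 on the growth rate. In binding the counts were 48 of 110 with N (33.9%), 63 with C (54.4%) and 77 with NC (64.6%). The count with N was 13 with the errors multiplied by 2 and 25 without errors above 0.2. In all 6 contrasts 0 members were lower by the normal test, against 0.798%, 0.532% and 0.621% of all in abundance and 0.792%, 3.61% and 3.43% in binding. At an unadjusted p under 0.05, 1 member was lower with N in abundance and 0 in the other contrasts. The median difference of the members was 0.110 with N, 0.232 with C and 0.306 with NC in abundance, beside 0.0798, 0.145 and 0.187 over all, and 0.115, 0.235 and 0.289 in binding, beside 0.0715, 0.144 and 0.206. The 4 constructs stood in the order PDZ3, N, C and NC from lowest to highest for 61 of 106 members in each assay, and NC stood above PDZ3 for 98 in abundance and 102 in binding. The order was not counted over all missense substitutions, so these counts show nothing particular to the strand.

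With C, the exchanges of R312 had the largest mean rise in binding of all 60 positions. The mean rise at R312 was 0.607 ± 0.0130 in binding and 0.389 ± 0.0279 in abundance, with N 0.136 ± 0.0157 and 0.174 ± 0.0331, and with NC 0.721 ± 0.0118 and 0.517 ± 0.0290. In binding it ranked 1 of 60 positions with C and 2 with NC, and in abundance 11 with both. With C it ranked 2 on the growth rate or when the lowest 5% of missense substitutions stood in for the nonsense variants, and 3 by the median over substitutions. With NC it ranked 1 on the unscaled score and the growth rate and 6 by the median. The rise was larger in binding than in abundance by 0.218 ± 0.0308 with C and by 0.204 ± 0.0313 with NC, differences that passed, while with N the difference did not (-0.0382 ± 0.0366). With N, I314 passed with 0.116 ± 0.0372, as did 3.33% of positions. Among positions, 25% passed in this direction with C and 23.3% with NC. At I314 the rise with C was 0.474 ± 0.0123 in binding and 0.368 ± 0.0278 in abundance, and at I316 0.362 ± 0.0127 and 0.419 ± 0.0333. With NC, I316 ranked 4 of 60 in abundance with 0.632 ± 0.0341. The mean rises passed at all 6 residues in all 6 contrasts, as they did at 78.3%, 86.7% and 95% of positions with N, C and NC in abundance and at 86.7%, 88.3% and 91.7% in binding. With NC those at R313, V315 and H317 were 0.161, 0.366 and 0.165 in abundance and 0.164, 0.295 and 0.129 in binding. Those of H317 in abundance no longer passed without the exchanges whose error was above 0.2. Those of V315 could not be tested without such exchanges in either assay, because fewer of its exchanges remained than the minimum set for a position. Where the rises with N and C add up, NC minus N minus C plus PDZ3 is 0. It did not pass at R312 in either assay (-0.0453 ± 0.0363 in abundance and -0.0213 ± 0.0174 in binding) or at I316 (0.0592 ± 0.0440 and 0.0191 ± 0.0167). At I314 it was -0.126 ± 0.0158 in binding, where 38.3% of positions passed as lower, and did not pass in abundance (0.0415 ± 0.0376, with 40% of positions lower). In abundance the values of I314 and I316 turned to -0.0786 and -0.0792 on the unscaled score, and that of I316 to -0.216 by the median over substitutions, and these passed, so no additivity can be read from them.

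The exchanges with the largest rises had low scores in PDZ3, which follows from how a rise is taken. Picking the largest rises also favours PDZ3 values that are low by error. In abundance V315W rose by 0.720 ± 0.119 with N, 1.03 ± 0.118 with C and 1.13 ± 0.116 with NC. V315P rose by 0.951 ± 0.149 with C and 1.04 ± 0.149 with NC, and I316H by 0.821 ± 0.0687 with C. In binding I314N led, from -1.39 in PDZ3, below the median nonsense variant, to -0.585 in N, -0.0742 in C and -0.0422 in NC. R312M followed with -1.40 in PDZ3 and -0.774, -0.160 and -0.0922 with the extensions. I314D rose by 0.832 ± 0.0430 with C and 0.949 ± 0.0380 with NC, and I316E went from -0.992 in PDZ3 to -0.360 in C and -0.0510 in NC, while I316D, with the shorter acidic side chain, scored -0.944 in PDZ3, -0.940 in C and -0.484 in NC. In the abundance of NC, exchanges below -0.5 were I314P (-0.636), I316D (-0.769) and I316P (-0.986), and in the binding of NC only I316W (-0.518) was.

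The share of exchanges with a scaled score below -0.5 sets the first strand beside 3 other stretches. In binding the share of exchanges below -0.5 was 44.3%, 32.1%, 7.55% and 0.943% of its 106 members, beside 44.2%, 32.6%, 23.9% and 14.6% of the 1016 exchanges at all other residues. The shares of PDZ3 and N thus lay at the background. It was 58.4%, 54.9%, 53.1% and 42.5% of 113 exchanges from N326 to E331 of the next strand, which lines the peptide groove. Those from I336 to L342 gave 47.4%, 36.8%, 34.6% and 15.0% of 133, and those from L353 to N363 50.9%, 39.1%, 23.1% and 14.8% of 169. In abundance the shares were 37.7%, 24.5%, 9.43% and 2.83% for the first strand and 17.7%, 10.6%, 7.96% and 0.885% for N326 to E331. They were 40.6%, 24.8%, 18.8% and 7.52% for I336 to L342, 51.5%, 39.1%, 30.2% and 19.5% for L353 to N363 and 34.2%, 20.0%, 13.4% and 5.81% for all other residues. In abundance I336 to L342 and L353 to N363 thus matched or exceeded the first strand in every construct. N326 to E331 lay below it in every construct, and all other residues lay below it in PDZ3 and N only. No test was run over these lists.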

How the data were processed

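The study measured growth of yeast that carried variants of the domain, in 4 constructs and 2 assays, with 56 libraries. The deposited scores are the authors' fitness relative to the wild type and its standard error, merged over the cultures. The authors also deposited a growth rate, which is a straight line of the score. The log base of the score is not stated. Cutadapt and FastQC were used per the submitters' processing notes, which give no versions. The sources used here name no aligner or caller.

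From these scores, the weighted median of the synonymous variants of a set was taken as 0. The squared error was the authors' squared error plus the squared extra spread that gave the synonymous variants a robust standardised spread of 1, plus that of the centre. With the authors' error alone, 31.2%, 17.1%, 7.34% and 6.25% of the synonymous variants passed in abundance (PDZ3, N, C and NC) and 4.81%, 6.69%, 16.5% and 11.3% in binding, and with the wider error 6.94%, 2.18%, 3.15% and 0% and 3.85%, 2.60%, 9.45% and 5.28%. Scaled scores were divided by the size of the median nonsense score, whose error entered each difference. Tests were two-sided normal tests, which rest on the authors' error, with Benjamini-Hochberg adjustment over all single missense substitutions, or over the 60 positions with at least 10 substitutions in all 8 sets. Position means are over those substitutions, and the spread between the substitutions of a position did not enter their errors. The fit of the centre and extra spread and contrasts of single substitutions were tested on simulated data. There large errors were capped and the noise followed the same error model. Position means and their contrasts were not tested in this way. Python 3.11.15, numpy 2.4.6, pandas 2.3.3 and scipy 1.17.1 were used.

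The members, lists and names were chosen with earlier results of these data known. Substitutions were named where they were the lowest or highest of a residue in a set (error of 0.2 or less) or among the 3 largest called rises or falls of a contrast. Prolines, close exchanges, acidic exchanges of R312 and R313, and stops were named too. I314E was picked after its values were seen. Alternatives were the deposited 0 of the score with the authors' error alone, errors multiplied by 2, an error limit of 0.2, the unscaled score, 2 other scales, the median over substitutions and the growth rate.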

Additional observations from a re-analysis of the deposited data

Results flagged for a closer look

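Each of the 6 residues passed some test of whether the effect of an extension differed with the other extension or with the assay. Several such tests were run, each over all 60 positions and in both directions. The share of all positions that passed any of them was not counted, so nothing particular to the strand can be read from this. The first kind is NC minus N minus C plus PDZ3 of the position means, which is 0 where the effects of N and C add up. In abundance it was -0.0777 ± 0.0256 at R313, -0.222 ± 0.0590 at V315 and -0.152 ± 0.0537 at H317, so NC rose by less than N and C together. Among positions 40% passed in that direction. In binding it was -0.126 ± 0.0158 at I314, -0.120 ± 0.0407 at V315 and -0.0740 ± 0.0325 at H317, with 38.3% of positions. All of these but I314 in binding no longer passed with the errors multiplied by 2, and H317 passed in neither assay without the exchanges whose error was above 0.2. V315 could not be tested without such exchanges, because fewer of its exchanges remained than the minimum set for a position. With NC the means behind these values lay close to the wild type, from -0.0789 (I314 in binding) to 0.0229 (H317 in binding). Few substitutions score above the wild type, so the test cannot tell a smaller effect of an extension from the top of the scale.

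The other kind is the rise with an extension in binding minus that in abundance. With N it was 0.116 ± 0.0372 at I314, where 3.33% of positions passed as higher. With C it was 0.218 ± 0.0308 at R312 and 0.105 ± 0.0304 at I314 (25% of positions), and with NC 0.204 ± 0.0313 at R312 (23.3%). I316 with NC went the opposite way with -0.103 ± 0.0359 (30% of positions lower), and turned to 0.130 on the unscaled score. The values of I314 and I316 did not pass with the errors multiplied by 2, and those of R312 passed under every alternative tried.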

How the results depend on the processing

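No paired analysis was possible because the table holds 1 value merged over the cultures of a set, and for the same reason no culture could be left out. Depth is unknown, and members with an error above 0.2 lie at V315 and H317. Under the alternatives, 131 values of the counts of members lay within 1.5 times those reported and 49 did not. Counts that stayed at 0 are among the 131, so the tally says less about the other counts. With the deposited 0 of the score and the authors' error alone, the members higher than the wild type were 4, 11, 3 and 10 in abundance and 2, 7 and 28 in the binding of N, C and NC, and 47 were lower in the abundance of NC. The wild type's own entry scored 0.0114 in the binding of C, and NC had no usable one. Against PDZ3 in abundance, 53 were then higher with N and 3, 1 and 2 lower with N, C and NC. Binding exceeded abundance for 15 in PDZ3, 35 in C and 33 in NC and was below it for 16 in C and 20 in NC. H317 in the binding of C turned to 0.0184. Of single exchanges, in score units, R312K in the abundance of N turned to 0.0121, I314V to 0.0317 in the abundance of PDZ3, 0.0270 in that of N and 0.0179 in the binding of C, and I316L there to 0.0232. With errors multiplied by 2, 32 members were lower in the abundance of C, 6 in that of NC and 37 in the binding of C, and 0 were higher in the binding of N, C or NC. Against PDZ3, 0, 37 and 40 were higher with N, C and NC in abundance and 13 with N in binding. Binding was lower than abundance for 6, 12, 3 and 3 and higher for 2, 5, 11 and 3. On the unscaled score 61 were higher with N in abundance, binding was lower for 34 in PDZ3, 37 in N and 4 in NC, and higher for 4 in PDZ3 and 3 in N. There the non-additivity in abundance turned to -0.0786 at I314 and -0.0792 at I316. Binding minus abundance turned to -0.0984 at I316 in PDZ3, -0.141 and -0.222 at I314 and I316 in N and -0.169 for I316P in N. The rise of I316 in binding minus that in abundance turned to 0.197 with C and 0.130 with NC. By the median over substitutions, I316 turned to -0.216 in the non-additivity of abundance, and binding minus abundance to -0.0658 at I314 in N and -0.178 and -0.136 at I316 in N and C. With both other scales 1 member was lower with N in abundance and 4 were higher in binding than in abundance in PDZ3. On the growth rate 52 were higher with N in abundance and 2 lower with C in binding. Without errors above 0.2, 25 were higher with N in binding and 3 in binding than in abundance in PDZ3. Causes of these changes were not tested.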

Other observations

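Many exchanges of the strand scored below a stop at the same residue in the abundance assay, although a stop ends the domain there. The stop at R312 scored -0.424 for PDZ3, -0.375 for N, -0.645 for C and -0.644 for NC, that at I314 -0.357 for PDZ3, -0.450 for N, -0.563 for C and -0.680 for NC and that at I316 -0.541 for PDZ3, -0.532 for N, -0.775 for C and -0.735 for NC. In PDZ3 13 of 19 exchanges of R312, 11 of 19 of I314 and 14 of 19 of I316 lay below the stop of their own residue, and 45 of the 93 members at residues with a listed stop did. With N it was 32 of 114, with C 7 and with NC 2. In binding the stops at R312 scored -1.001 for PDZ3, -1.01 for N, -0.9999 for C and -1.02 for NC, and 16 of 95 members in PDZ3, 7 of 114 in N and 0 in C and NC lay below the stop of their residue. The strand thus holds exchanges such as R312W (-1.49), I316D (-1.16) and I314R (-1.14) with less abundance signal in PDZ3 than the truncations at the same residues. These counts were drawn up after the values were seen and carry no test.

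With C and NC, aspartate scored below glutamate at I316. With C, I316D scored -0.940 ± 0.0275 in binding and I316E -0.360 ± 0.0239, and with NC -0.484 ± 0.0156 and -0.0510 ± 0.0132. In PDZ3 and N they lay close or in the other order, with I316D at -1.14 ± 0.0608 and I316E at -1.16 ± 0.0604 in the abundance of N, and -0.944 ± 0.0337 and -0.992 ± 0.0333 in the binding of PDZ3. R312D scored -0.444 ± 0.0464 and R312E -0.141 ± 0.0449 in the abundance of NC. At I314 the order was the same with C, with I314D at -0.417 ± 0.0302 and I314E at -0.0961 ± 0.0289 in abundance, but not in the binding of NC (-0.0587 ± 0.0130 and -0.0863 ± 0.0128). At R313 the acidic residues stood near the wild type with the extensions, R313D at 0.0863 ± 0.0498 and R313E at 0.0311 ± 0.0486 in the abundance of NC. Differences between these exchanges were not tested.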
